A study of Mus musculus with 10 samples.

Results

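The 41 genes described here are interferon-stimulated and antiviral genes of the mouse, taken by name from the 55421 genes counted in each library, and all 41 were matched by gene symbol to 1 Ensembl gene each. They were grouped by role: 6 RNA and DNA sensors and adaptors, 6 genes of interferon signalling and its control, 13 effectors that act on RNA, 4 GTPase and nucleotide effectors, 4 membrane restriction factors, 4 genes that control retroelements and self nucleic acid, and 4 other interferon-stimulated genes. MOV10 is an RNA helicase that restricts retroviruses and LINE1 retrotransposons, and the study asked how its loss alters the testis transcriptome and which RNAs it binds there. RNA-seq was done on whole testes at postnatal day 21 (P21) from 3 wild type and 3 Mov10-/- mice, each library from the pair of testes of 1 animal. The Mov10-/- libraries carry the replicate numbers 2, 3 and 4 and the wild type libraries 1, 2 and 3. The knockout is global: a floxed block of Mov10 exons, made in embryonic stem cells, was deleted with Actb-Cre, which is driven by the β-actin promoter. The mice were on a mixed 129 x C57BL/6 x FVB background, and which alleles a given mouse carried at the genes below was not tested. MOV10 CLIP-seq, in which RNA cross-linked to the protein is immunoprecipitated and sequenced, was done on wild type P21 testes in 4 libraries numbered 1, 2, 3 and 5.

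Interferons are secreted proteins that a cell makes when its sensors meet viral or misplaced nucleic acid. RIG-I (Ddx58) and MDA5 (Ifih1) bind double-stranded RNA and signal through MAVS, and cGAS senses DNA and signals through STING (Tmem173). Secreted interferon binds its receptor on the same or neighboring cells, and the factor ISGF3, which holds STAT2 and IRF9, then binds the interferon-stimulated response element (ISRE) in promoters of effector genes such as Ifit1, Isg15 and Oas1a. In testis the somatic cells, above all macrophages, Sertoli and Leydig cells, are known for stronger interferon responses than germ cells, and retroelement RNA or DNA can trigger the same sensors.

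Promoter sequences from RefSeq (GRCm38.p6, 250 bases before to 50 bases after the start site) were given for 31 of the 41 genes. No window was given for Oas1b, Usp18, Tmem173, Rtp4, Mx1, Oas2, Ifi27, Zbp1, Dhx58 and Mx2. The ISRE was searched as GAAANNGAAA on both strands (TTTCNNTTTC on the other strand), and overlapping matches were kept. It was found in windows of 16 of the 31 genes (51.6%), against 3.99% of the 27025 genes in the table. The runs below are shown for members of several roles because this element is what ties interferon signalling to its target genes, and because the Ifit3 and Ifit3b runs show how alike these neighbors are. Each is written 5′ to 3′ in the direction of its gene, with the ISRE match in capitals.
Isg15, chr4:156200877-156200906, minus strand: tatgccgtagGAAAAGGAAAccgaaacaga
Ifit1, chr19:34640794-34640823, plus strand: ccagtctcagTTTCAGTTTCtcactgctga
Ifit3, chr19:34583363-34583392, plus strand: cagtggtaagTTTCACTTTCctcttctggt
Ifit3b, chr19:34607759-34607788, plus strand: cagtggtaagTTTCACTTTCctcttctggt
Oas1a, chr5:120907520-120907549, minus strand: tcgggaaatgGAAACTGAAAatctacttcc
Rsad2, chr12:26456553-26456582, minus strand: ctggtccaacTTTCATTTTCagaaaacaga
Bst2, chr8:71537577-71537606, minus strand: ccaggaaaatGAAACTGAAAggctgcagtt
Ifitm3, chr7:141010706-141010735, minus strand: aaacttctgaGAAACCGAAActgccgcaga

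The match in Isg15 began 78 bases before the start site and was the first of 3 matches, each overlapping the next. The runs of Ifit3 and Ifit3b were identical over their 30 bases. A gamma-activated site, searched as TTCNNNGAA, was found in 7 of the 31 genes (22.6%), against 9.55% of genes in the table. The windows of Oasl2, Irf7, Xaf1 and Ifi44 held no ISRE match, which says only that these letters were not in these windows.

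The RNA-seq libraries held 5083407 to 9230540 reads on genes, so that 1 read was worth 0.107 to 0.206 CPM. CPM are counts scaled to 1000000 reads on genes, with the library total adjusted by the TMM factor. Differences in genes of a few CPM or less rest on few reads. The fewest reads on genes were in Mov10-/- 3, in which 57.2% of reads were not aligned, against 26.5 to 35.9% in the other 5. Mov10 (chr3:104794836-104818563) had 235, 130 and 217 reads in Mov10-/- libraries 2, 3 and 4 and 969, 707 and 1115 in wild type 1, 2 and 3, a log2 fold change of -2.00 (SE 0.12, adjusted p = 0.0055, edgeR quasi-likelihood test with Benjamini-Hochberg adjustment over all genes tested). The labelled tissue was checked with marker lists: 15 of 15 spermatocyte, 12 of 12 spermatogonia and 13 of 14 Sertoli cell markers passed the filter of 1 CPM in at least 3 libraries. Spermatid markers set 1 library apart, since all 17 that passed the filter were highest in wild type 2, and 15 of them were lowest in Mov10-/- 2.

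In wild type testis the members spanned a wide range of level per length, taken as all annotated exon bases of the gene. That length can exceed that of a single transcript. For Apobec3 it was 9454 bases, while the longest transcript had 3053. The median over the 39 members that passed the filter was 3.12 RPKM (CPM divided by the exon length in kilobases), against 8.24 for all genes tested, and 10 of the 39 (25.6%) lay above that median of all genes. Ifitm3 was the most abundant, at 32.1 ± 1.87 RPKM (SD, n = 3), and its protein blocks the entry of enveloped viruses at endosomes. It was followed by Ifi27 at 27.98 ± 2.11, a small interferon-induced membrane protein, Dhx58 at 23.9 ± 4.87, the LGP2 regulator of RIG-I and MDA5, Mavs at 20.0 ± 3.69 and Bst2 at 17.9 ± 3.74, the tetherin that holds virions at the cell surface (all RPKM). Ifitm3 and Ifi27 did not overlap between libraries, while Ifi27, Dhx58 and Mavs each overlapped the next. In the whole order of 40 genes, 4 of the 39 pairs of neighbors did not overlap. Of the genes described below, Isg15 stood at 3.52 RPKM, Irf7 at 2.90, Ifit1 at 0.948, Rsad2 at 0.468 and Ifi44 at 0.213.

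**Figure D1:**
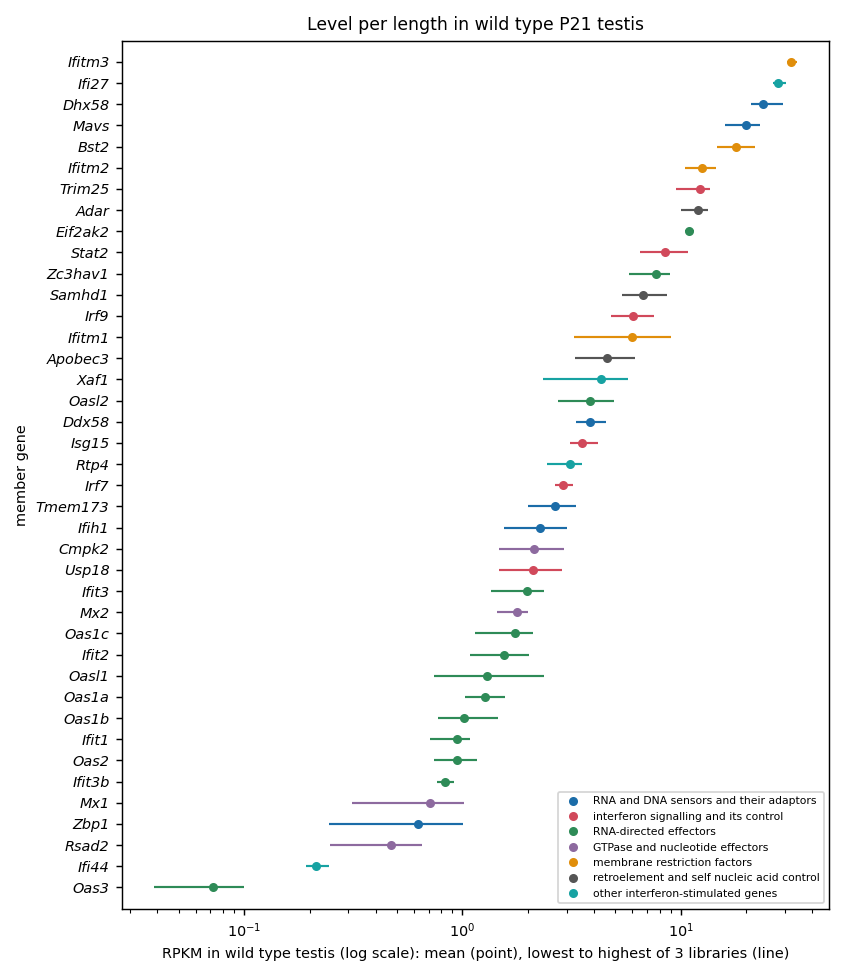
Level of 40 members in wild type P21 testis in RPKM on a log axis, as the mean (point) and the lowest to highest of 3 libraries (line), colored by role. Levels run from 0.0716 RPKM for Oas3 to 32.1 for Ifitm3, and most neighbors in the order overlap. Trex1 had no read and is not drawn.

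Between genotypes, no member passed a fold change over 2 with an adjusted p under 0.05 in the edgeR quasi-likelihood test. That test called 1 of the 20240 genes tested (0.00494%), which was Mov10. With edgeR and the same cutoffs, without naming the test, the paper reported many more protein-coding genes as changed, most of them lower in Mov10-/-. It gives 1 moderately enriched term for the higher genes, negative regulation of viral process. Of the members, 39 were tested. Oas3 stayed below the filter, with 9, 2 and 16 reads in Mov10-/- and 6, 2 and 5 in wild type, and Trex1 had 0 reads in all 10 libraries. All annotated Trex1 exon bases also lie in exons of Atrip on the same strand, so a read there could not be given to 1 gene. At an unadjusted p under 0.05, 2 members were higher in Mov10-/- testis, Oasl2 and Irf7, which is 5.13% of those tested against 5.58% of all genes. None was lower, against 11.9% of all genes. Every Mov10-/- library lay above every wild type library for 2 members, Oasl2 and Ifitm3 (5.13%, against 11.9% of all genes), and below for 0 (against 14.1%). The members' fitted log2 fold change was above 0 for 32 of 39, against 53.8% of all genes, with a median of 0.28 against 0.03. The adjusted p of the 39 lay between 0.150 and 0.996.

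**Figure D2:**
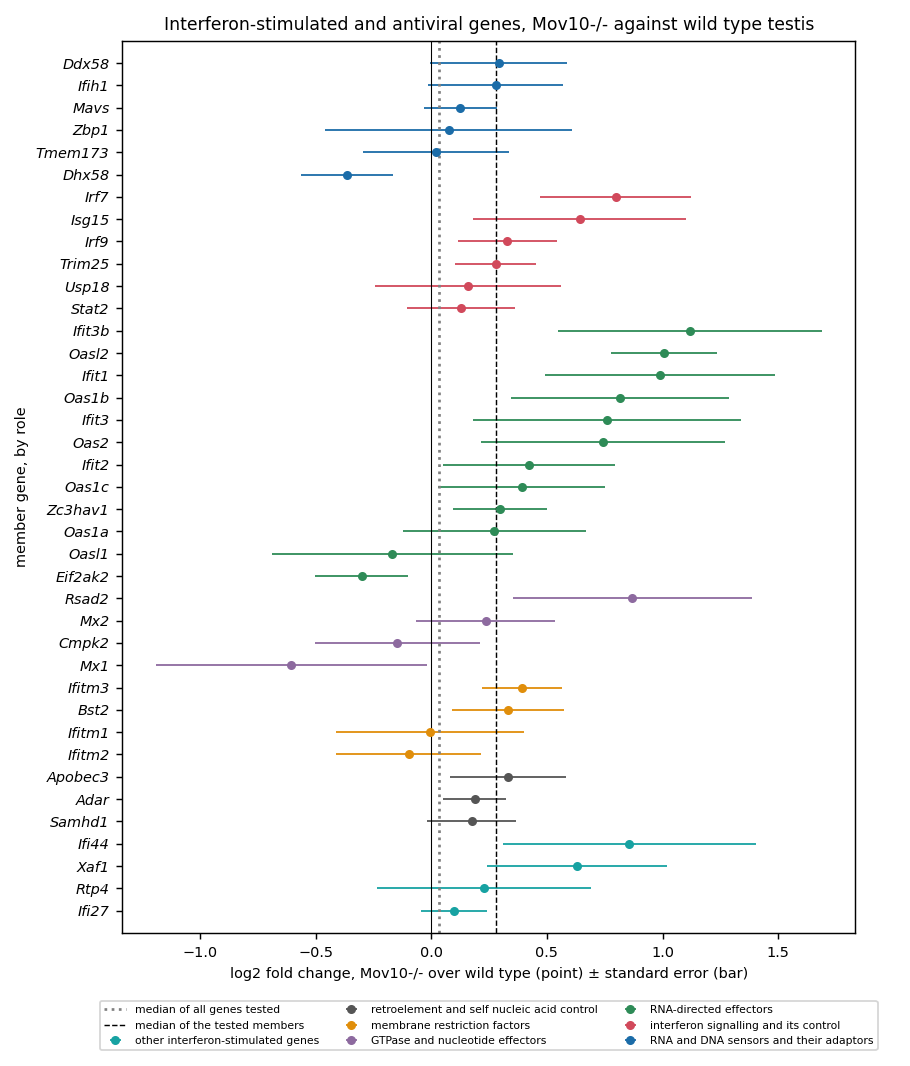
Fitted log2 fold change of the 39 tested members, Mov10-/- over wild type (point), with its standard error (bar), by role. Values run from -0.60 for Mx1 to 1.12 for Ifit3b; the dashed line is the members' median of 0.28 and the dotted line the median of 0.03 over all genes tested.

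Among the 6 sensors and adaptors the median log2 fold change was 0.10, and the genotypes overlapped for all 6. Dhx58 was the only one with a value below 0. Its levels were 46.9, 71.8 and 64.2 CPM in Mov10-/- 2, 3 and 4 and 69.8, 96.7 and 68.4 in wild type 1, 2 and 3. Wild type 2 was highest and Mov10-/- 2 lowest, and Mov10-/- 3 lay above wild type 1 and 3. The log2 fold change was -0.36 (SE 0.20, adjusted p = 0.384). For Mavs, the mitochondrial adaptor of both RNA sensors, the levels were 78.4, 75.7 and 65.3 CPM in Mov10-/- and 76.9, 53.1 and 70.8 in wild type. Only wild type 2 lay below all Mov10-/- libraries, and the log2 fold change was 0.13. The RNA sensors Ddx58 (log2 fold change 0.29) and Ifih1 (0.28), the Z-form nucleic acid sensor Zbp1 (0.07) and STING, Tmem173 (0.02), had adjusted p values from 0.642 to 0.978.

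All 6 genes of interferon signalling had log2 fold changes above 0, with a median of 0.30, and 5 of the 6 were highest in Mov10-/- 4. Irf7, the transcription factor that amplifies interferon production, had 17.9, 11.7 and 27.3 CPM in Mov10-/- 2, 3 and 4 and 10.01, 10.7 and 12.1 in wild type 1, 2 and 3. Mov10-/- 2 and 4 lay above all wild type libraries, and Mov10-/- 3 lay within their range. The log2 fold change was 0.80 (SE 0.33, adjusted p = 0.264). Irf9, the DNA-binding subunit of ISGF3, had 43.2, 33.3 and 45.7 CPM in Mov10-/- and 30.7, 25.7 and 40.8 in wild type. Its genotypes overlapped through Mov10-/- 3 and wild type 3 (log2 fold change 0.33). Trim25, a ubiquitin ligase of RIG-I signalling, had 98.1, 72.0 and 86.0 CPM in Mov10-/- and 77.7, 54.9 and 78.7 in wild type (0.28). It also overlapped through Mov10-/- 3. Isg15, the ubiquitin-like modifier, had a mean of 4.09 ± 2.48 CPM (SD, n = 3) in Mov10-/- and 2.66 ± 0.429 in wild type. Its log2 fold change of 0.64 rested on Mov10-/- 4, at 6.91 CPM, while Mov10-/- 2 and 3 had 3.10 and 2.26 CPM and the wild type libraries 2.36 to 3.15. Usp18, which removes ISG15 and damps the receptor (0.16), and Stat2 (0.13) had adjusted p values of 0.858 and 0.804.

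The effectors that act on RNA had the largest median of the 7 role groups, 0.58 over the 12 tested, with 10 of 12 above 0. Oasl2 encodes an oligoadenylate synthetase-like protein and lies at chr5:114896936-114912234 on the plus strand, next to Oasl1. Its levels were 49.9, 43.4 and 54.9 CPM in Mov10-/- 2, 3 and 4 and 31.4, 17.4 and 24.9 in wild type 1, 2 and 3. The lowest Mov10-/- library lay above the highest wild type library. The mean was 49.4 ± 5.79 CPM in Mov10-/- and 24.6 ± 7.03 in wild type (SD, n = 3), a fold of 2.01 (log2 fold change 1.01, SE 0.23, adjusted p = 0.150, edgeR quasi-likelihood test). It was the member with the smallest p. With other tools the adjusted p was 0.0065 in edgeR's exact test and 0.0055 in its likelihood ratio test, both of which called it, and 0.0029 in DESeq2, where the log2 fold change of 1.00 fell just short of the fold threshold. It was 0.253 in limma-voom, which, like DESeq2, called 0 members. Of all genes, the exact test called 0.346% as higher, the likelihood ratio test 0.41% and DESeq2 0.252%. Its neighbor Oasl1 had a mean of 2.95 ± 0.657 CPM in Mov10-/- and 3.37 ± 2.42 in wild type (log2 fold change -0.17), with the highest value in wild type 2.

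The Ifit genes, of which Ifit1 encodes a protein that binds viral RNA lacking the cap methylation of host mRNA, lie together on chromosome 19. Ifit1, Ifit3 and Ifit3b shared a pattern over the libraries. Ifit1 had 4.71, 2.06 and 8.02 CPM in Mov10-/- 2, 3 and 4 and 1.88, 2.88 and 2.79 in wild type 1, 2 and 3. Ifit3b had 3.47, 1.03 and 6.17 CPM in Mov10-/-, from 28, 5 and 50 reads. In wild type it had 1.53, 1.64 and 1.83 CPM, from 13, 12 and 17 reads. For both, Mov10-/- 2 and 4 were above every wild type library and Mov10-/- 3 was not. The log2 fold changes were 0.99 (SE 0.50, adjusted p = 0.353) for Ifit1 and 1.12 (SE 0.57, adjusted p = 0.358) for Ifit3b. Ifit3 had 4.34, 2.06 and 10.9 CPM in Mov10-/- and 2.36, 4.11 and 3.87 in wild type (0.76, adjusted p = 0.534). As in Ifit3b, Mov10-/- 4 was highest and Mov10-/- 3 lowest, while Ifit1 was lowest in wild type 1. Of the 50-base runs of the Ifit3 transcript, 51.2% also occur in Ifit3b, so reads from these genes could be split or dropped when only uniquely placed reads are counted. Summed, the pair had 7.82, 3.08 and 17.03 CPM in Mov10-/- and 3.89, 5.75 and 5.69 in wild type, which keeps the order of the libraries. Ifit2 (0.42) was highest in Mov10-/- 2.

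Active oligoadenylate synthetases make the messenger that activates RNase L, and the activity of the proteins of the genes below was not tested. Oas1b had 3.47, 1.85 and 5.31 CPM in Mov10-/- and 1.53, 1.64 and 2.90 in wild type, with Mov10-/- 3 inside the wild type range (log2 fold change 0.82, SE 0.47, adjusted p = 0.413). The annotation lists Oas1b as a polymorphic pseudogene, since many inbred strains carry a truncated form. Oas2 (0.74), Oas1c (0.39) and Oas1a (0.27) were also highest in Mov10-/- 4, and 57.6% of the 50-base runs of Oas1a occur in other genes of the family. Other RNA-binding effectors were more abundant. Zc3hav1, the zinc finger protein ZAP that binds CpG-rich viral RNA, had 72.7, 50.8 and 62.2 CPM in Mov10-/- and 58.3, 37.7 and 55.3 in wild type (0.30). Eif2ak2, the kinase PKR, had a mean of 44.9 ± 12.1 CPM in Mov10-/- and 55.6 ± 2.79 in wild type (-0.30, adjusted p = 0.478).

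**Figure D3:**
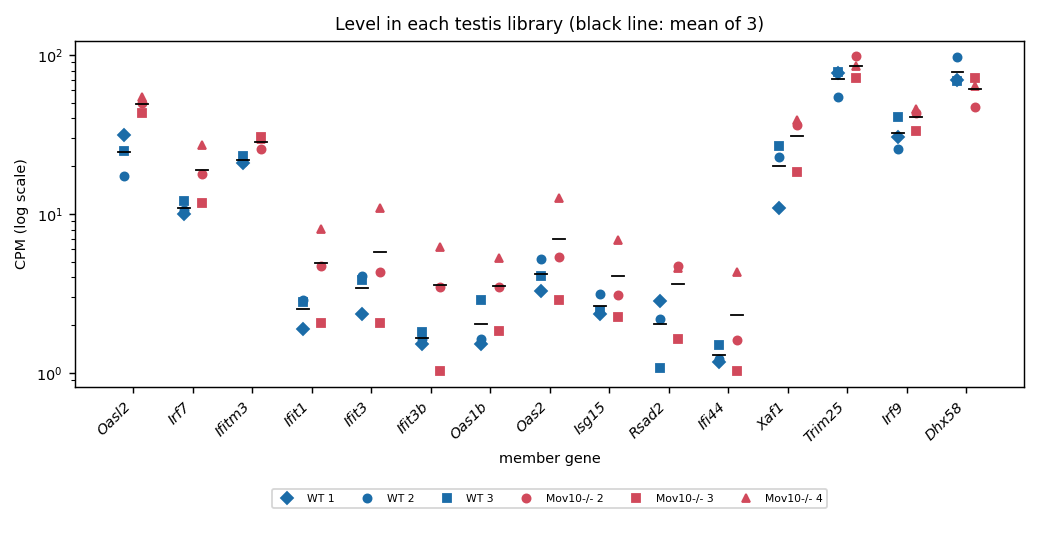
CPM of 15 members in each of the 6 RNA-seq libraries on a log axis, wild type in blue and Mov10-/- in red, with the mean of 3 as a black line and the replicate number by marker shape. Oasl2 and Ifitm3 are the genes without overlap, and Ifit1, Ifit3, Ifit3b, Oas2, Isg15 and Ifi44 are highest in Mov10-/- 4 and low in Mov10-/- 3.

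In the group of GTPase and nucleotide effectors, 2 of the 4 values were above 0. Rsad2, the radical SAM enzyme viperin, had 4.71, 1.64 and 4.57 CPM in Mov10-/- and 2.83, 2.19 and 1.07 in wild type. Mov10-/- 2 and 4 were above all wild type libraries, and the log2 fold change was 0.87 (SE 0.52, adjusted p = 0.429). Its neighbor and partner gene Cmpk2, a nucleotide kinase, had a log2 fold change of -0.15 and was highest in wild type 2. The dynamin-like GTPases Mx1 and Mx2 had -0.60 and 0.23, with adjusted p values of 0.622 and 0.712. The annotation lists Mx2, like Oas1b, as a polymorphic pseudogene.

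Of the 4 membrane restriction factors, Ifitm3 had 25.6, 30.4 and 29.9 CPM in Mov10-/- 2, 3 and 4 and 20.8, 21.2 and 23.2 in wild type 1, 2 and 3. All Mov10-/- libraries were above all wild type libraries, with Mov10-/- 3 the highest, unlike in the Ifit genes. The log2 fold change was 0.39 (SE 0.17, adjusted p = 0.295). Bst2 had 20.6, 16.9 and 23.5 CPM in Mov10-/- and 15.3, 13.3 and 19.9 in wild type, overlapping through Mov10-/- 3 and wild type 3 (0.33). Ifitm1 (-0.01) and Ifitm2 (-0.10) had adjusted p values of 0.996 and 0.888, and 40.9% of the Ifitm2 exon bases lie in exons of Gm45717 on the same strand.

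The genes that limit retroelements and self nucleic acid had log2 fold changes of 0.17 to 0.33. Apobec3, the cytidine deaminase that edits retroviral DNA, had 65.4, 43.4 and 54.2 CPM in Mov10-/- and 58.6, 31.1 and 39.96 in wild type. Wild type 1 lay above Mov10-/- 3 and 4, and the value was 0.33 (SE 0.25, adjusted p = 0.531). Adar, which edits double-stranded RNA and keeps it from MDA5, had 120.7, 98.3 and 112.8 CPM in Mov10-/- and 102.2, 81.5 and 107.9 in wild type (0.19). Wild type 1 and 3 lay within the Mov10-/- range. Samhd1, which hydrolyses deoxynucleotides, had a value of 0.17 (adjusted p = 0.668).

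Of the other interferon-stimulated genes, Xaf1, a pro-apoptotic zinc finger protein, had 36.1, 18.5 and 38.9 CPM in Mov10-/- and 11.0, 22.7 and 27.0 in wild type. Ifi44 had 1.61, 1.03 and 4.32 CPM in Mov10-/-, from 13, 5 and 35 reads. In wild type it had 1.18, 1.23 and 1.504 CPM, from 10, 9 and 14 reads. Both had Mov10-/- 2 and 4 above wild type and Mov10-/- 3 within or below it, with log2 fold changes of 0.63 (SE 0.39) and 0.86 (SE 0.55). Their adjusted p values were 0.444 and 0.460. Ifi27 had 48.6, 38.7 and 44.3 CPM in Mov10-/- and 39.8, 38.8 and 44.6 in wild type, which overlapped (0.10). Rtp4, a receptor transporter protein with antiviral activity, had 0.23 (adjusted p = 0.822).

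The libraries of 1 genotype differed from each other in these genes. Mov10-/- 4 held the highest value of 19 of the 39 tested members, against 6.27% of all genes, and the lowest of 0. Mov10-/- 2 held the highest of 10, against 26.5% of all genes. Mov10-/- 3 held the lowest of 13, against 13.2% of all genes, and wild type 2 the lowest of 14, against 34.6% of all genes. Taking each gene's log2 CPM relative to its mean over the 6 libraries, the members averaged 0.23, -0.33 and 0.52 in Mov10-/- 2, 3 and 4 and -0.17, -0.16 and -0.09 in wild type 1, 2 and 3. The genes highest in Mov10-/- 4 were Ddx58, Stat2, Irf7, Irf9, Usp18, Isg15, Ifit1, Ifit3, Ifit3b, Oas1a, Oas1b, Oas1c, Oas2, Oasl2, Mx2, Bst2, Rtp4, Xaf1 and Ifi44. The summed CPM of all members was 1085, 846 and 1112 in Mov10-/- (mean 1014 ± 146) and 931, 779 and 924 in wild type (878 ± 85.8), so the genotypes overlapped. The median SD of log2 CPM within a genotype was 0.401 in Mov10-/- and 0.334 in wild type for the 39 members. It was 0.290 and 0.329 for the 7714 genes within the interquartile range of the members' levels. The members were not limited to that range, so the sets were not matched in level.

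These values depended on single libraries. Without Mov10-/- 3, the library with 57.2% of reads not aligned, 7 members were higher at an unadjusted p under 0.05 (Ddx58, Ifit1, Ifit3b, Irf7, Oas1b, Oasl2 and Rsad2), against 3.55% of all genes, and the median was 0.43. Without Mov10-/- 4, 1 member was (Oasl2), against 3.8% of all genes, the median was 0.12, and 24 of 39 values were above 0. Without wild type 2, 1 member was (Oasl2), against 2.68% of all genes. No member was called in any of these fits. Oasl2 had a log2 fold change between 0.814 and 1.201 over all alternatives, and 23 members kept their sign in all 17. Ifit3, Oas1a, Oas2, Usp18, Stat2, Rtp4, Zbp1 and Tmem173 turned below 0 without Mov10-/- 4.

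Marker lists of testis cell types also differed between genotypes and libraries. Their part in the members' values was not tested, and in whole testis fewer cells of a type and less RNA per cell cannot be told apart. Macrophage and monocyte markers had a median log2 fold change of 0.40 over 14 of 15 tested, 12 of them above 0, with summed levels of 381 to 561 CPM in Mov10-/- and 294 to 498 in wild type. They were highest in Mov10-/- 2 for 12 of 14 genes and in Mov10-/- 4 for none. Ly6c2, which marks inflammatory monocytes, stayed below the filter. It had 0, 2 and 2 reads in Mov10-/- 2, 3 and 4 and 0 in each wild type library, too few to compare. Lymphocyte markers summed to 12.5 to 16.3 CPM in Mov10-/- and 15.8 to 22.5 in wild type, with 4 of 13 tested. The median log2 fold change of the 4 was -0.10, with 2 above 0 and 2 below, the lowest being Cd3d at -2.17. Of 5 plasmacytoid dendritic cell markers none passed the filter, and they summed to at most 1.64 CPM in Mov10-/- and 3.89 in wild type. The Sertoli list had a median of 0.31 (12 of 13 above 0; 1111 to 1311 CPM against 918 to 1039), the endothelial list 0.26 (11 of 11; 277 to 305 CPM against 219 to 243), peritubular myoid cells 0.32 (6 of 7), Leydig cells 0.23 (8 of 9) and spermatogonia 0.24 (10 of 12). The members' median of 0.28 lay within the range of these lists. Spermatid markers had a median of -2.22, with 17 of 17 below 0, and summed to 235 to 524 CPM in Mov10-/- and 512 to 1486 in wild type. Spermatocyte markers had a median of 0.05 (11 of 15 above 0), and the red blood cell list had 0.09 (4 of 5) and the mesothelial list 1.60 (6 of 7).

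**Figure D4:**
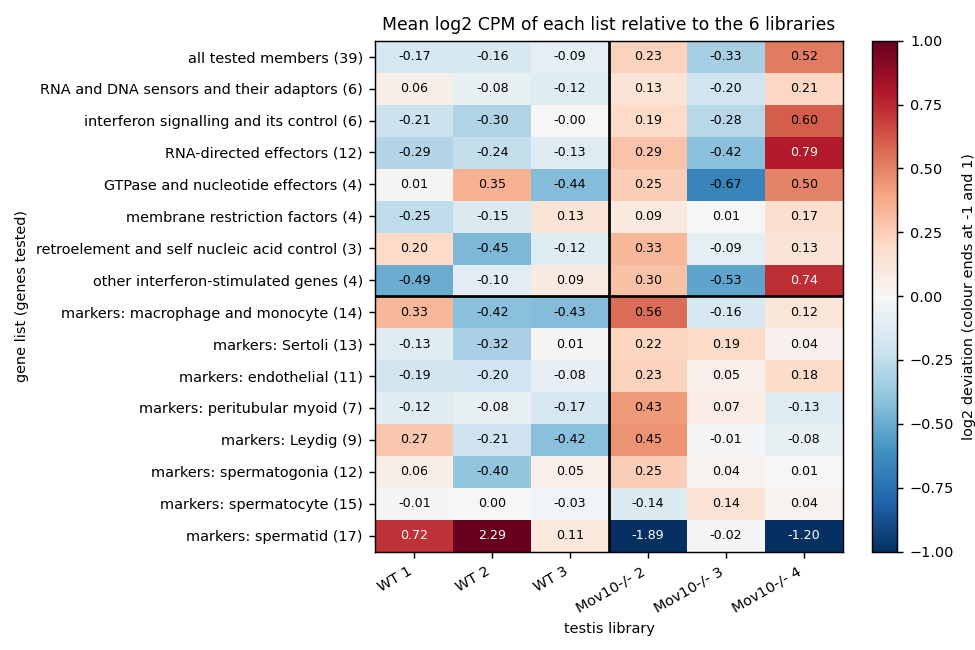
Mean log2 CPM of each gene list in each library relative to the 6-library mean, for the members, their roles and marker lists of testis cells, with the number of tested genes in brackets and the color scale ending at -1 and 1. The members are highest in Mov10-/- 4 (0.52) and lowest in Mov10-/- 3 (-0.33), macrophage markers are highest in Mov10-/- 2 (0.56), and spermatid markers run from -1.89 in Mov10-/- 2 to 2.29 in wild type 2.

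The wider pathway was followed in a list of 102 genes that are no members, of which 82 were tested. The quasi-likelihood test called 0 of them. At an unadjusted p under 0.05 in that test, 4 were higher (4.88%, against 5.58% of all genes) and 2 lower (against 11.9% of all genes). The median log2 fold change was 0.24, against 0.03 for all genes, with 67 of 82 above 0 (81.7%, against 53.8%). None of the 13 interferon genes passed the filter, and 10 of them, Ifnb1 included, had 0 reads in all 6 RNA-seq libraries. That allows at most 0.617 CPM of uniquely placed reads in the shallowest library. Sequence shared among the interferon genes was not searched. The 6 receptor genes had a median of 0.19. Ifnar1 had 112.2, 100.5 and 103.9 CPM in Mov10-/- and 100.7, 76.3 and 99.5 in wild type (log2 fold change 0.20, adjusted p = 0.470), overlapping only through Mov10-/- 3 and wild type 1. Ifnar2 (0.21) and Irf3 (0.19) had adjusted p values of 0.726 and 0.493. The DNA sensor Cgas (0.00), the endosomal RNA receptor Tlr3 (0.41) and Rnaseh2b (0.18), a subunit of the nuclease that removes RNA from RNA-DNA hybrids, had adjusted p values of 0.999, 0.655 and 0.665. The inhibitor list had a median of -0.04 and the list of further interferon-stimulated genes 0.25.

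Of the pathway genes, Uba7 had the smallest p. It encodes the enzyme that activates ISG15 for conjugation, and had 11.5, 7.40 and 12.2 CPM in Mov10-/- 2, 3 and 4 and 4.95, 3.83 and 5.59 in wild type 1, 2 and 3. The genotypes did not overlap, and the log2 fold change was 1.12 (SE 0.32, adjusted p = 0.163). In DESeq2 the adjusted p was 0.0498, and Uba7 was the 1 pathway gene that DESeq2 called. Herc6, the mouse ligase that attaches ISG15 to proteins, had 29.8, 35.6 and 36.9 CPM in Mov10-/- and 42.9, 53.7 and 44.8 in wild type, without overlap in the other direction (-0.47, adjusted p = 0.198). The activating enzyme and the ligase of the ISG15 system had values of opposite sign. Parp9, a partner of the ubiquitin ligase DTX3L, had a log2 fold change of 0.71 (adjusted p = 0.267), Traf3, an adaptor of interferon induction, 0.48 (adjusted p = 0.260), and Atad3a, which encodes a mitochondrial protein, 0.41 (adjusted p = 0.246). All Mov10-/- libraries were above all wild type libraries for these 3 genes. The genes of this paragraph were picked by their p, which favors groups that do not overlap. Of the 82 tested pathway genes, 9 (11.0%) had all Mov10-/- libraries above wild type, against 11.9% of all genes. For 4 (4.88%) all lay below, against 14.1% of all genes.

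Reads of MOV10 CLIP-seq on the members were few. The libraries held 3404 to 4934 reads on genes, 99.5 to 99.6% of their reads were not aligned, and 1 read was worth 203 to 294 CPM, here without a TMM factor. Replicates 1, 2 and 3 differed by less than the sampling noise (chi-square over degrees of freedom 0.223 to 0.237, against 1.62 to 1.93 with replicate 5) and were counted as 1 sample. Each of the 4 libraries had 4 reads on members. With replicates 1, 2 and 3 as 1 sample that was a mean of 0.0965% of reads on genes, and 0.104% with the 4 libraries taken separately. In the single libraries the share was 0.101% (exact binomial 95% interval 0.0276 to 0.259), 0.117%, 0.118% and 0.0811% (0.0221 to 0.207 in replicate 5). In wild type RNA-seq the members held 0.0880% of reads on genes, which would give 3.00 to 4.34 reads at the depth of these libraries. The intervals cover counting error only. A difference of the members from their RNA share was not detectable at this depth.

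Oasl2 had 1, 1, 2 and 0 reads in CLIP-seq replicates 1, 2, 3 and 5, and Apobec3 and Xaf1 each had 1, 1, 1 and 0. These are the 3 members with a read in each of replicates 1, 2 and 3. Irf7 had 2 reads, and Mavs and Zc3hav1 1 each, in replicate 5 alone, while Adar had 1 in replicate 1 and Oas3 1 in replicate 2. No member had a read both in replicate 5 and in replicates 1, 2 or 3. Of the tested members 7 of 39 (17.9%) had a read, against 18.1% of all genes tested. A count of 0 in a library allowed up to 608 to 881 CPM.

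Members with and without an ISRE match in the promoter window were set side by side, with no test. Over the 15 tested genes with a match the median log2 fold change was 0.33, with 13 above 0 and a range of -0.30 to 1.12. Over the 14 tested genes with a window but no match it was 0.29, with 11 above 0 and a range of -0.17 to 1.01. Oasl2, the member with the smallest p, was among those without a match, as were Irf7, Xaf1 and Ifi44. Adar and Ifi44 lie on chromosome 3 with Mov10, at 15.04 and 46.91 megabases from it, and no other member does.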

How the data were processed

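Unnormalized read counts for each Ensembl gene were deposited, 1 file for each of 6 RNA-seq and 4 CLIP-seq libraries. To make the RNA-seq counts (stranded poly(A) kit), the authors trimmed adapters, aligned reads to mm10 with STAR and counted them with htseq-count against Ensembl v99. The strand setting of the counting and the test used within edgeR are not given in the sources used here. Rows that name no gene made up 52.8 to 71.7% of reads in RNA-seq and over 99.9% in CLIP-seq and were left out. Here, symbols, positions and exon lengths came from GENCODE M21 (GRCm38), another version than the authors'; 55240 of 55421 genes matched. Genes above 1 CPM in at least 3 of 6 libraries were tested with edgeR 4.0.16 in R 4.3.3, by its quasi-likelihood test after TMM scaling, with Benjamini-Hochberg adjustment over all genes tested. CPM used TMM-scaled totals, and RPKM divided CPM by exon length. Alternatives were DESeq2 1.42.0, limma-voom 3.58.1, edgeR's exact and likelihood ratio tests, robust estimation, other normalizations and filters, a replicate block and each library left out. The fits were first tested on simulated data. There the quasi-likelihood test, at an adjusted p under 0.05, recovered 30 of 100 genes changed 2-fold and 62 of 100 changed 4-fold. It also called 8 unchanged genes. The members and lists were chosen with earlier results of these data known. Values in every library are given for the 12 members with the smallest p, the 5 with the highest wild type RPKM, Ifit3 and Ifit3b, and members with a CLIP-seq read; of other genes Mov10, 7 pathway genes set by name and the 5 pathway genes with the smallest p are given, and 1 further gene set by name is not reported here. RefSeq promoter windows were searched for motif letters, and 33 of 37 member windows had their bases after the start site in a GENCODE transcript start of the gene.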

Additional observations from a re-analysis of the deposited data

How the results depend on the processing

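DESeq2 called 1 pathway gene (Uba7), and edgeR's exact test and likelihood ratio test called 1 member each (Oasl2); in the other alternatives 0 members and 0 pathway genes were called. Leaving out 1 library at a time, the members higher at an unadjusted p under 0.05 numbered 1 to 7 and the members' median log2 fold change lay between 0.12 and 0.43; 0 members were lower in any of these fits. Replicate numbers 2 and 3 are shared by both genotypes. Same-numbered libraries deviated from their genotype means in opposite directions (correlations of -0.463 and -0.344 over 20240 genes). Libraries of unlike number deviated in the same direction (0.318 and 0.453). Deviations from a mean of 3 libraries depend on each other, so this cannot exclude a pairing. The number was not taken as one in the main fit. A fit with the replicate number as a block compared the genotypes within numbers 2 and 3 only. Each of the other numbers occurs in 1 genotype, so its library added nothing to that comparison. In the block fit, 1 member (Oasl2) was higher at an unadjusted p under 0.05 and the median was 0.12. Over all genes 36 were called higher and 148 lower. These shifts mix the use of fewer libraries with any pairing, and their cause was not tested. Other normalizations and filters left the median between 0.27 and 0.28. With all placed reads as the total, the members' share of CLIP-seq reads was 0.0119% in place of 0.104%, since most placed reads lie outside genes, and with replicates 1, 2 and 3 averaged it was 0.0965%. Leaving out 1 CLIP-seq library gave 0.0997 to 0.112%. Of the 39 members, 16 changed sign in at least 1 of 17 alternatives, Isg15, Mx2 and Ifi44 in the block alone. The design of 3 against 3 and the depth of the CLIP-seq libraries limit what can be seen, and a difference that missed the threshold is not shown to be absent.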
